A study of Bombyx mori with 4 samples.

Results

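A set of 102 loci stood lower after 3 h than after 1 h of culture in prothoracic glands of the silkworm Bombyx mori, both with and without prothoracicotropic hormone (PTTH), while the libraries with and without the hormone lay within 1.5-fold of each other. They were chosen from 14622 loci, of which 8547 had a mean of at least 1 FPKM, fragments per kilobase of transcript corrected for library size, over the 4 libraries. These are called tested loci below, although 1 library per group allows no statistical test. The choice used ratios of (FPKM + 1): the 3 h over 1 h ratio had to be at most 1/1.5 in each arm, with the authors' upper confidence limit at 3 h below the lower limit at 1 h, and the PTTH over control ratio had to lie between 1/1.5 and 1.5 at both times. The falls and the closeness of the arms are therefore what defined the set, and their values are given below as a description, with no test. All 102 passed the filter on low values, because the filter was part of the choice.

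The 4 groups were glands with 10 nM recombinant PTTH for 3 h, glands with 10 nM PTTH for 1 h, glands without hormone for 3 h (control) and glands without hormone for 1 h (control), each as 1 library. All came from racial hybrid larvae at day 4 of the fifth instar and had 30 min in Grace's medium before the incubation at room temperature. Glands of 12 to 18 larvae made an RNA preparation, and 2 preparations were pooled per library. The glands of a pair were split between medium with and without PTTH, so the arms share larvae at each time, whereas the 3 h and 1 h libraries come from different larvae. A difference between the pools of larvae and a change during culture cannot be told apart, and in pooled tissue neither can fewer cells of a type and less RNA per cell.

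The prothoracic gland is the larval endocrine gland that converts dietary sterols into ecdysteroids, the hormones that drive moulting and metamorphosis. PTTH is a brain peptide that acts on the gland through the receptor tyrosine kinase Torso and raises ecdysteroid output. An explanted gland is cut off from haemolymph, nerves and tracheal supply, and the level of an mRNA in it reflects the balance of transcription and decay. Loci carry no gene names in the deposited table, so no member can be assigned a function and the glands' identity could not be checked against marker genes. Loci are given by scaffold, start and end as the table lists them, on a genome build not given in the sources used here.

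The falls were moderate and of similar size in both arms. Over the 102 loci, the median log2 ratio of (FPKM + 1) at 3 h over 1 h was -0.83 with PTTH and -0.83 in the controls, against -0.03 with PTTH and 0.06 in the controls over all 8547 tested loci. As plain FPKM ratios the members were 1.51-fold to 4.19-fold lower at 3 h with PTTH, with a median of 1.95-fold. In the controls they were 1.53-fold to 3.66-fold lower, with a median of 1.91-fold. On the (FPKM + 1) scale 25 members were at least 2-fold lower with PTTH and 21 in the controls, and 12 were so in both arms. The same 2-fold fall was seen in 1.73% of all tested loci with PTTH, in 1.24% in the controls and in 0.316% in both.

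A fall of 1.5-fold with limits apart was called in 615 tested loci with PTTH, which is 7.2%, and in 324 in the controls, which is 3.79%. Both arms met it in 126 loci, or 1.47%, and 24 of these were outside the bounds on PTTH against control. At 3 h 16 of the 24 were at least 1.5-fold lower with PTTH than without and 4 at least 1.5-fold higher. The 102 loci were thus 16.6% of the loci called lower with PTTH and 31.5% of those called lower in the controls. By the same call, 7.5% of tested loci were higher at 3 h with PTTH and 7.71% in the controls. By the mirror rule 157 loci rose in both arms.

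**Figure D1:**
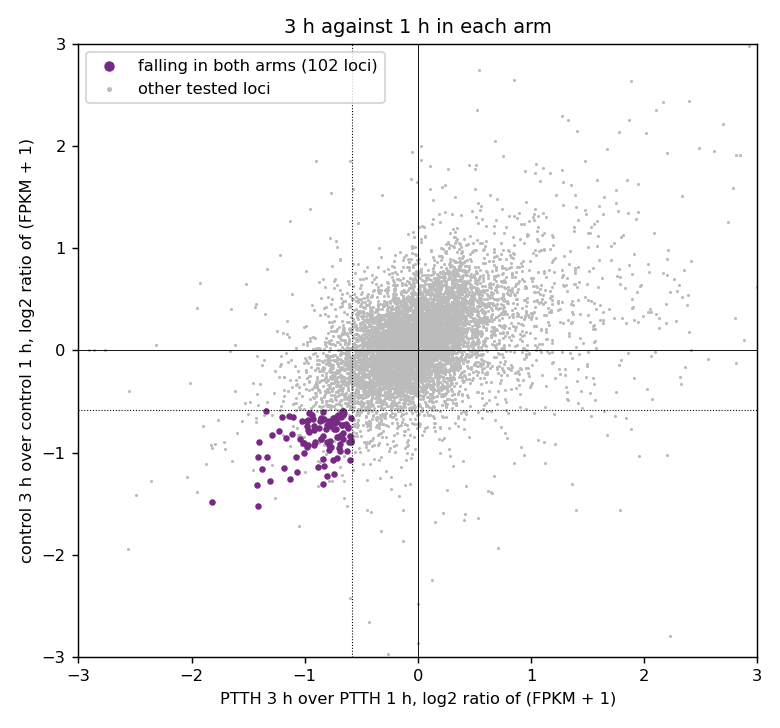
Each point is a tested locus, with its log2 ratio of (FPKM + 1) at 3 h over 1 h with PTTH on the horizontal axis and in the controls on the vertical axis, and dotted lines mark a 1.5-fold fall. The 102 chosen loci (purple) lie below both lines at -1.82 to -0.59 with PTTH and -1.52 to -0.59 in the controls. The axes stop at 3, and 22 loci with larger ratios are not drawn.

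Together the 102 loci were a small part of the summed FPKM. That part was smaller at 3 h in both arms, which follows from the rule. Their summed level was 2159 FPKM in PTTH 3 h against 4135 FPKM in PTTH 1 h, and 2286 FPKM in control 3 h against 4336 FPKM in control 1 h. As a share of all FPKM this was 0.293% in PTTH 3 h against 0.602% in PTTH 1 h, and 0.301% in control 3 h against 0.621% in control 1 h. Over all loci the totals were higher at 3 h. With PTTH they were 736698 FPKM at 3 h against 686611 at 1 h. In the controls they were 760179 FPKM at 3 h against 697859 at 1 h. How the libraries were scaled is not known, so these totals are not read as a change in RNA.

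The depth behind these values was read from the authors' limits. Where an upper limit lies 2 Poisson standard deviations above its FPKM, the width of that step gives a fragment count, called implied fragments here. Standard errors (SE) from them cover counting error only. The median member had 112 implied fragments in PTTH 3 h against 227 in PTTH 1 h, and 118 in control 3 h against 225 in control 1 h, all below the medians of 248 to 268 over all tested loci. In 96 of the 102 every library reached 20 implied fragments, and in 55 every library reached 100.

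The largest fall was at XLOC_008367, at nscaf2902 5081951 to 5083086. It had 9.43 FPKM (limits 8.01 to 10.8) in PTTH 3 h and 35.7 FPKM (32.9 to 38.5) in PTTH 1 h. Without hormone it stood at 12.0 FPKM (10.4 to 13.7) in control 3 h, against 35.5 FPKM (32.5 to 38.4) in control 1 h. The 1 h libraries were nearly equal and both 3 h libraries far lower, by a log2 ratio of -1.82 ± 0.11 (counting SE) with PTTH and -1.49 ± 0.11 without. The other locus named by identifier, XLOC_012836 at nscaf3058 4343475 to 4347613, had the next largest fall among members with at least 20 implied fragments everywhere. Its level was 1.57 FPKM in PTTH 3 h against 5.38 FPKM in PTTH 1 h, and 2.51 FPKM in control 3 h against 7.54 FPKM in control 1 h. Here the PTTH library was the lower at each time, and the log2 ratios of 3 h over 1 h were close, at -1.31 ± 0.14 with PTTH and -1.28 ± 0.14 without.

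Between these stood a pair of loci with few fragments. The locus at nscaf2986 1424371 to 1424719, only 348 bp long, had 3.10 FPKM from 12.0 implied fragments in PTTH 3 h against 9.92 FPKM in PTTH 1 h, and 4.12 FPKM in control 3 h against 13.7 FPKM in control 1 h. The locus at nscaf2888 1622129 to 1623237 had 1.11 FPKM in PTTH 3 h against 4.65 FPKM in PTTH 1 h, and 1.29 FPKM in control 3 h against 4.72 FPKM in control 1 h. Its plain folds of 4.19 with PTTH and 3.66 without were the highest of the set in each arm, but they rest on 8.50 and 8.51 implied fragments at 3 h. The counting SE of the log2 ratios at these loci was between 0.33 and 0.38, about 3 times that of XLOC_008367.

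Long and short loci were among the others of the 10 largest falls. At nscaf2888 8552447 to 8561410 the level was 11.8 FPKM in PTTH 3 h against 32.3 FPKM in PTTH 1 h, and 15.4 FPKM in control 3 h against 35.7 FPKM in control 1 h. At nscaf3040 2271500 to 2280275 it was 5.43 FPKM in PTTH 3 h against 16.1 FPKM in PTTH 1 h, and 7.52 FPKM in control 3 h against 16.6 FPKM in control 1 h. At nscaf2589 3342202 to 3347576 it was 4.30 FPKM in PTTH 3 h against 10.6 FPKM in PTTH 1 h, and 5.84 FPKM in control 3 h against 15.4 FPKM in control 1 h. In these 3 loci the PTTH library was below the control at both times, with limits that overlapped except at nscaf2589 at 1 h. A 621 bp locus at nscaf2888 6449632 to 6450253 had 6.86 FPKM in PTTH 3 h against 16.9 FPKM in PTTH 1 h, and 7.65 FPKM in control 3 h against 18.2 FPKM in control 1 h, so its arms nearly coincided. A 360 bp locus at nscaf1108 2004447 to 2004807 had 7.26 FPKM in PTTH 3 h against 20.8 FPKM in PTTH 1 h, and 7.07 FPKM in control 3 h against 13.99 FPKM in control 1 h. Its 3 h values coincided and the 1 h value was the higher with PTTH, with overlapping limits.

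**Figure D2:**
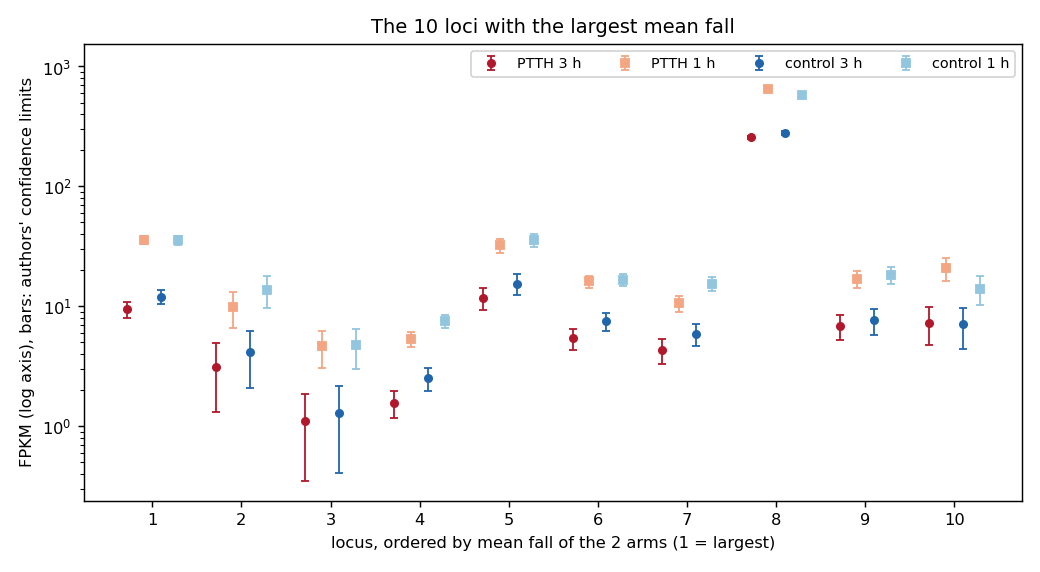
FPKM on a log axis in the 4 libraries for the 10 members with the largest mean fall, with bars for the authors' confidence limits. In each locus both 3 h libraries (circles) lie below both 1 h libraries (squares), as at the first locus with 9.43 and 12.0 FPKM at 3 h against 35.7 and 35.5 FPKM at 1 h.

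The members' levels were near those of all tested loci. The mean over the 4 libraries was at least 100 FPKM in 6 members, which is 5.88% against 8.70% of tested loci, and under 10 FPKM in 42, which is 41.2% against 39.5%, with a median of 12.3 FPKM against 14.6 FPKM over all tested loci. The locus at nscaf2930 99035 to 103148 was the best measured, with 256 FPKM (246 to 265) in PTTH 3 h against 644 FPKM (628 to 660) in PTTH 1 h, and 280 FPKM (269 to 290) in control 3 h against 576 FPKM (560 to 592) in control 1 h. The limits of all 4 values were apart, with the PTTH library below the control at 3 h and above it at 1 h. The locus at nscaf2931 942070 to 944291 had the same mean level of 439 FPKM, with 241 FPKM (218 to 265) in PTTH 3 h against 510 FPKM (475 to 546) in PTTH 1 h, and 328 FPKM (301 to 356) in control 3 h against 677 FPKM (633 to 720) in control 1 h. There the PTTH library was below the control at both times with limits apart, and the 3 h over 1 h ratios were alike at -1.08 ± 0.09 with PTTH and -1.04 ± 0.08 without.

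The next most abundant were very short. A 228 bp locus at nscaf2990 305803 to 306031 had 221 FPKM (194 to 247) in PTTH 3 h against 335 FPKM (300 to 369) in PTTH 1 h, and 170 FPKM (147 to 194) in control 3 h against 306 FPKM (272 to 341) in control 1 h. The shortest member, 189 bp at nscaf2511 505074 to 505263, had 140.4 FPKM in PTTH 3 h against 235 FPKM in PTTH 1 h, and 149 FPKM in control 3 h against 245 FPKM in control 1 h. A 433 bp locus at nscaf2789 409550 to 409983 had 83.02 FPKM in PTTH 3 h against 145 FPKM in PTTH 1 h, and 71.7 FPKM in control 3 h against 170 FPKM in control 1 h. The level of the 189 bp locus rests on 62.9 to 94.8 implied fragments per library, and that of the 228 bp locus on 212 to 383. Of the remaining 5 among the 10 highest, nscaf2889 736164 to 737022 had 77.5 FPKM in PTTH 3 h against 126 FPKM in PTTH 1 h, and 65.9 FPKM in control 3 h against 131 FPKM in control 1 h. The 4 others, at nscaf2888 1750827 to 1751738, nscaf2902 7437776 to 7439140, nscaf2888 899742 to 900216 and nscaf2330 2416590 to 2430163, had 40.7 to 71.5 FPKM at 3 h with PTTH and 44.7 to 63.3 FPKM at 3 h without it, below 80.8 to 120.2 FPKM at 1 h with PTTH and 77.6 to 129 FPKM at 1 h without it.

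**Figure D3:**
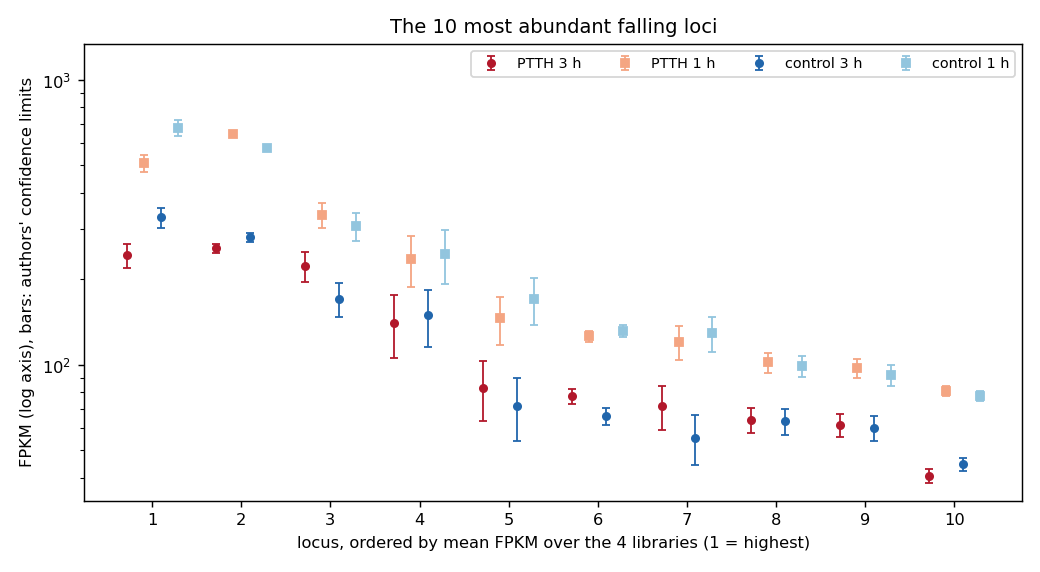
FPKM on a log axis in the 4 libraries for the 10 members with the highest mean FPKM, with bars for the authors' confidence limits. The 3 h libraries (circles) lie below the 1 h libraries (squares) in all 10, while the order of PTTH and control differs between loci, as at locus 1 (241 against 328 FPKM at 3 h) and locus 3 (221 against 170 FPKM at 3 h).

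At the low end, nscaf2797 596740 to 606723 had a mean of 1.14 FPKM, with 0.671 FPKM in PTTH 3 h against 2.04 FPKM in PTTH 1 h, and 0.471 FPKM in control 3 h against 1.38 FPKM in control 1 h. At nscaf2883 1056372 to 1058332 the values were 0.485 FPKM in PTTH 3 h against 1.79 FPKM in PTTH 1 h, and 0.906 FPKM in control 3 h against 2.55 FPKM in control 1 h. The plain ratios here were 3.03-fold with PTTH and 2.92-fold without at the first, and 3.70-fold and 2.82-fold at the second. They were among the larger of the set, but rest on few implied fragments. The fewest were 15.0 in control 3 h at the first and 9.98 in PTTH 3 h at the second. The added 1 FPKM shrinks the log2 ratios of these loci to between -0.91 and -0.69. The next lowest, scaffold766 24388 to 27474, had 1.26 FPKM in PTTH 3 h against 3.29 FPKM in PTTH 1 h, and 1.94 FPKM in control 3 h against 3.68 FPKM in control 1 h. Low and abundant members shared the direction that the rule set.

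Locus span was not used by the rule, and its median was smaller in the falling than in the rising loci. The median span on the scaffold was 2253 bp for the 102 falling loci, against 7936 bp for the 157 loci rising by the mirror rule and 4524 bp for all tested loci. Spans under 1000 bp were seen in 24.5% of the falling loci, 8.28% of the rising loci and 14.1% of all tested loci. Spans of at least 10000 bp were seen in 6.86% of the falling loci, 40.1% of the rising loci and 23.4% of all tested loci. The 24 loci falling in both arms outside the bounds on PTTH against control had a median span of 3458.5 bp. The share of tested loci called lower in an arm, members included, was highest at 500 to 1000 bp. It was 11.1% there with PTTH and 6.75% in the controls, against 4.05% and 1.55% from 10000 bp. Shorter spans were thus not particular to the 102. Loci are not replicates of a condition, so these are descriptions with no test.

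The longest member, nscaf2822 40799 to 67175, spans 26376 bp and had 10.3 FPKM in PTTH 3 h against 17.1 FPKM in PTTH 1 h, and 9.86 FPKM in control 3 h against 18.3 FPKM in control 1 h. The next, nscaf3031 6185234 to 6207652, had 2.07 FPKM in PTTH 3 h against 4.01 FPKM in PTTH 1 h, and 2.05 FPKM in control 3 h against 4.50 FPKM in control 1 h. After it, nscaf2204 1415970 to 1429670, had 2.09 FPKM in PTTH 3 h against 4.20 FPKM in PTTH 1 h, and 2.59 FPKM in control 3 h against 4.84 FPKM in control 1 h. Of the 102, 0 reached 30000 bp, a span that 1.498% of all tested loci had. With so low a share, the 0 is not read as a difference. At the short end, nscaf2529 2327425 to 2327770 spans 345 bp and had 31.8 FPKM in PTTH 3 h against 58.4 FPKM in PTTH 1 h, and 34.9 FPKM in control 3 h against 64.4 FPKM in control 1 h.

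Over all tested loci, the median ratio was highest at the longest loci in both arms and did not rise steadily below 2000 bp in either. In the controls the median log2 ratio of 3 h over 1 h was -0.05 under 500 bp, at 500 to 1000 bp and at 1000 to 2000 bp. There it was 0.01 at 2000 to 5000 bp, 0.10 at 5000 to 10000 bp and 0.20 at 10000 bp and more. With PTTH it was 0.00 under 500 bp, -0.13 at 500 to 1000 bp, -0.12 at 1000 to 2000 bp, -0.05 at 2000 to 5000 bp, -0.01 at 5000 to 10000 bp and 0.05 at 10000 bp and more. Members made up 2.21% of tested loci under 500 bp, 1.97% at 500 to 1000 bp, 1.99% at 1000 to 2000 bp, 1.19% at 2000 to 5000 bp, 1.05% at 5000 to 10000 bp and 0.350% from 10000 bp. Across levels the share varied less, from 1.25% of tested loci with a mean of 1 to 5 FPKM to 1.36% at 10 to 20 FPKM, 0.779% at 50 to 100 FPKM and 0.806% from 100 FPKM.

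Span includes introns, and a length of the transcript itself can be read only indirectly, as implied fragments per FPKM. Relative to the median tested locus this implied length had a median of 0.967 in the falling loci, 1.35 in the rising loci and 0.997 in all tested loci. In the 24 loci falling in both arms outside the bounds on PTTH against control its median was 0.779. The upper quartile was 1.37 in the falling loci, 2.83 in the rising loci and 1.83 in all tested loci. Members with an implied length of at least 2 times the median were 11.8% of the falling loci, against 35.0% of the rising loci and 21.8% of all tested loci. Exons, introns and UTRs of these loci were not analysed here.

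**Figure D4:**
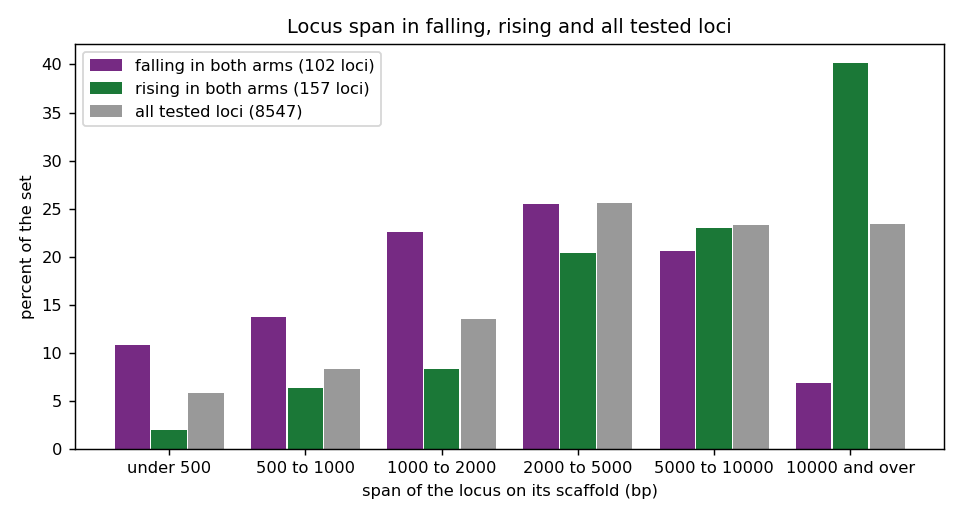
Percent of each set by span of the locus on its scaffold in bp, for the 102 loci falling in both arms, the 157 rising in both arms and all 8547 tested loci. Falling loci hold the highest share in each class below 2000 bp, and rising loci the highest at 10000 bp and over (40.1% against 6.86% of the falling loci).

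How evenly members are spread over the genome was not tested. They lay on 56 of the 354 scaffolds with tested loci, with 1 member on each of 35 scaffolds and 3 or more on each of 12. The most were 8 on nscaf2888, or 3.00% of its 267 tested loci, and 7 on nscaf1898, or 2.39% of 293, against 1.19% of tested loci over all scaffolds. On nscaf2931 3 of 49 tested loci were members. No member's span overlapped that of another locus in the table, and only 33 tested loci, or 0.386%, had such an overlap. With so low a share among all tested loci, its absence among the members is not read as a difference.

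In 4 places a pair of members were consecutive tested loci, where members are 1.19% of all tested loci. Whether 4 pairs are more than that share would give was not tested. The pair at nscaf1690 6656130 to 6657311 and 6672194 to 6677473, with 14883 bp between them, had nearly the same level in every library. The first had 15.8 FPKM in PTTH 3 h against 40.1 FPKM in PTTH 1 h, and 22.3 FPKM in control 3 h against 40.4 FPKM in control 1 h. The second had 18.1 FPKM in PTTH 3 h against 40.2 FPKM in PTTH 1 h, and 22.9 FPKM in control 3 h against 41.2 FPKM in control 1 h. Between these loci the authors' limits overlapped in each of the 4 libraries, and whether they are pieces of 1 gene was not tested.

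The other pairs differed in level. At nscaf2822 a locus at 28523 to 39931 ends 868 bp before the longest member and had 3.83 FPKM in PTTH 3 h against 9.83 FPKM in PTTH 1 h, and 5.40 FPKM in control 3 h against 10.6 FPKM in control 1 h. At nscaf2993 the locus at 6018292 to 6021386 had 32.6 FPKM in PTTH 3 h against 53.7 FPKM in PTTH 1 h, and 34.5 FPKM in control 3 h against 54.1 FPKM in control 1 h. Its neighbour at 6025374 to 6034458 had 10.1 FPKM in PTTH 3 h against 20.9 FPKM in PTTH 1 h, and 13.3 FPKM in control 3 h against 22.1 FPKM in control 1 h. The fourth pair, at nscaf2136 292340 to 299362 and 303453 to 304020, stood at 6.84 and 22.3 FPKM in PTTH 3 h, 13.2 and 36.0 FPKM in PTTH 1 h, 7.56 and 22.5 FPKM in control 3 h, and 12.7 and 34.7 FPKM in control 1 h. Of the 192 other tested loci beside a member, 15 were called lower with PTTH, which is 7.81% against 7.2% of all tested loci, and 8 in the controls, which is 4.17% against 3.79%. Members are left out of the 192 but counted among all tested loci, so these shares are not like for like. Beside members the median log2 ratio of 3 h over 1 h was -0.13 with PTTH and -0.01 in the controls. Over all tested loci it was -0.03 with PTTH and 0.06 in the controls. Whether the surroundings of members differ from the background was not tested.

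The arms were compared with each other within the bounds that the rule set. At 1 h the median log2 ratio of PTTH over control was -0.10 over the members, against -0.07 over all tested loci, and at 3 h it was -0.14 against -0.19. The limits of the arms overlapped at both times in 77 members. At 1 h they were apart in 14 members, with PTTH below in 13 and above in 1, where 10.3% of tested loci were below and 3.32% above. At 3 h they were apart in 16 members, with PTTH below in 13 and above in 3, where 34.4% of tested loci were below and 13.1% above. A bound of 1.5-fold held for 95.3% of tested loci at 1 h and 76.3% at 3 h. For these 25 members the label of no difference with PTTH holds as a bound on size and not as overlap of the limits.

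At 4 members, or 3.92%, the PTTH library was below the control with limits apart at both times, as in 7.89% of tested loci. Besides nscaf2931 942070 to 944291 above, nscaf3075 195242 to 203838 had at 3 h 6.65 FPKM with PTTH against 9.40 FPKM without, and at 1 h 12.3 FPKM with PTTH against 18.3 FPKM without. At nscaf2529 5084381 to 5086846 the values were 16.0 FPKM with PTTH against 23.0 FPKM without at 3 h, and 29.6 FPKM with PTTH against 37.4 FPKM without at 1 h. At nscaf3031 2567765 to 2571052 they were 7.53 FPKM with PTTH against 10.4 FPKM without at 3 h, and 15.1 FPKM with PTTH against 18.0 FPKM without at 1 h. In these loci the PTTH library was the lower one at 1 h already, and both arms were lower again at 3 h.

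How far the fall itself differed with PTTH was read from the log2 ratio of 3 h over 1 h with PTTH minus that in the controls. It ranged from -0.75 to 0.48 with a median of -0.04 over the members, where the median counting SE was 0.21. In 87 members it was within 2 counting SE of 0, in 11 the fall was larger with PTTH beyond that and in 4 larger in the controls. Over all tested loci 27.3% were below -2 counting SE and 13.6% above 2, but the rule bounded this difference in the members, so nothing is read from their count. As deposited the fall was larger with PTTH in 61 members and larger in the controls in 41. The direction of this lean depended on scaling. Over all tested loci, the median 3 h over 1 h ratio with PTTH minus the median in the controls was -0.09. Relative to this value the fall was larger with PTTH in 35 members and larger in the controls in 67, beyond 2 counting SE in 5 and 8.

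The largest difference toward PTTH was at nscaf1898 7362998 to 7363364, with 16.5 FPKM in PTTH 3 h against 43.2 FPKM in PTTH 1 h, and 24.4 FPKM in control 3 h against 37.2 FPKM in control 1 h, a difference of -0.75 ± 0.27. At nscaf2847 7228737 to 7230517 it was -0.54 ± 0.22, with 13.3 FPKM in PTTH 3 h against 31.9 FPKM in PTTH 1 h, and 19.5 FPKM in control 3 h against 31.2 FPKM in control 1 h. The next, at nscaf1108 2004447 to 2004807, was within 2 counting SE of 0 at -0.51 ± 0.40. The largest toward the controls was at nscaf2891 686123 to 695330, with 609 implied fragments or more in every library. It had 13.3 FPKM (12.4 to 14.2) in PTTH 3 h against 20.6 FPKM in PTTH 1 h, and 10.1 FPKM (9.31 to 11.0) in control 3 h against 22.5 FPKM in control 1 h. That difference, 0.48 ± 0.09, exceeded 5 times its counting SE, and the limits of PTTH 3 h lay above those of control 3 h. At nscaf2930 99035 to 103148 the difference was smaller but spanned more counting SE, at -0.290 ± 0.046, with the larger fall under PTTH. At nscaf2853 2619372 to 2628474 the difference was 0.47 ± 0.23, with 7.15 FPKM in PTTH 3 h against 13.6 FPKM in PTTH 1 h, and 5.62 FPKM in control 3 h against 15.4 FPKM in control 1 h. The locus at nscaf2888 1750827 to 1751738 had a difference of 0.47 ± 0.23, just within 2 counting SE, with 71.5 FPKM in PTTH 3 h against 120.2 FPKM in PTTH 1 h, and 55.3 FPKM in control 3 h against 129 FPKM in control 1 h.

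**Figure D5:**
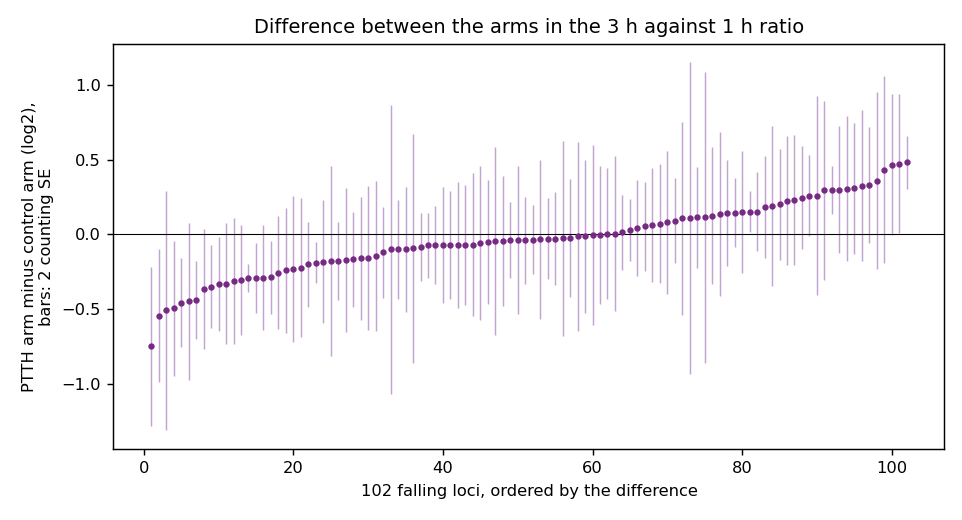
For each of the 102 members, ordered by value, the log2 ratio of 3 h over 1 h with PTTH minus that in the controls, with bars of 2 counting SE. The bars cross 0 in 87 loci, and the values run from -0.75 (larger fall with PTTH) to 0.48 (larger fall in the controls).

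The edges of the set were gradual for the size of the fall and for PTTH against control at 3 h. The 3 members nearest the threshold had log2 ratios of -0.588 to -0.594 with PTTH and of -0.589 to -0.594 in the controls. The 3 nearest loci that met all other demands and missed this one had -0.576 to -0.582 with PTTH and -0.571 to -0.581 in the controls. In all, 50 loci missed the set only through the size of the fall with PTTH and 71 only through that in the controls, so membership at this edge is a matter of small differences. The bound on PTTH against control alone kept out 4 loci at 1 h and 18 at 3 h. At 3 h the nearest member had a log2 ratio of 0.57 in size and the nearest excluded locus one of 0.59. The demand on limits alone kept out 4 loci with PTTH and 9 in the controls, and the minimum level kept out 1, at a mean of 0.935 FPKM.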

How the data were processed

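RNA was sequenced from 4 libraries, 1 per group, so no test was possible and p-values were not computed. The authors deposited 1 table of FPKM and of the confidence limits around each FPKM, made with Cuffdiff per the table's own name. The submitters' processing notes list CASAVA 1.8.0, SAMtools and TopHat and give no roles. Genome build, annotation, type of limit and how libraries were scaled against each other were not given in the sources used here. Groups were taken from the sample titles. Of 14622 identifiers, 0 matched a reference list of 18210 genes (assembly ASM3026992v2), so lists of named genes and marker genes could not be used.

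The members and lists were chosen with earlier results of these data known. Ratios are log2 of (FPKM + 1), which understates changes of low loci. Among values under 20 implied fragments, 82.6% to 88.5% per library were multiples of 0.5 within 0.02. The limits imply 10294120 fragments in PTTH 3 h against 8358610 in PTTH 1 h, and 9116894 in control 3 h against 8134934 in control 1 h. Errors from them cover counting error only. Loci chosen for description were the 10 largest mean falls, the 10 highest and 3 lowest levels, and the 3 longest and shortest. Neighbouring members, the 3 largest differences between arms in each direction and the loci at each threshold were also chosen. Not all are given in full, as some of the highest levels and most loci at thresholds are covered by ranges or counts. Only 2 are named by identifier, those with the largest mean fall and at least 20 implied fragments in every library. The members below the control at both times, and implied lengths, were added after their values were seen. The rule was run on simulated loci of at least 5 FPKM with many fragments in every library. Their falls were larger than the median member's, and the only noise was counting error. That run cannot show how the rule performs at the depth and falls of these members, or with differences between pools. Alternatives were pseudocounts of 0.1 and 5 FPKM, other scalings, filters, a 2-fold fall, no use of limits and a fragment minimum. Computations used Python 3.11.15, numpy 2.4.6, pandas 2.3.3 and matplotlib 3.10.9.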

Additional observations from a re-analysis of the deposited data

How the results depend on the processing

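The number of loci in the set depended on the settings, against 102 as reported. A pseudocount of 5 FPKM left 47, of which 44 were among the 102, and a 2-fold fall in both arms left 12, all among them. Rescaling every library to the same total FPKM gave 192, which included all 102, since this scaling lowers the 3 h values, whose totals were higher. The other 7 settings gave 77 to 131 loci. For the 102 loci the median ratio of 3 h over 1 h under the 5 pseudocounts and scalings tried lay between -0.95 and -0.59 with PTTH and between -0.94 and -0.60 in the controls. The median of PTTH over control at 3 h was -0.14 as deposited and 0.05 after centring on all tested loci. The median span was 1633 to 2411 bp under the 5 alternatives to the filter, fold, limits and depth, and was not computed for the other pseudocounts and scalings. Members beside another member numbered 8, 10 with a filter at 5 FPKM or without the limits, and 0 with a 2-fold fall, where 12 loci remain. The 37 loci named for size, level, span, neighbours or arm difference gave 74 ratios. Of these, 25 moved by more than 2 counting SE with a pseudocount of 5 FPKM, 6 with 0.1 FPKM and 7 with equal totals. At nscaf2797 596740 to 606723 the control ratio was -0.69, and -1.37 with 0.1 FPKM or -0.22 with 5 FPKM. Depth limits the 6 members with fewer than 20 implied fragments in a library. No paired analysis was possible because each group is 1 library, although the arms of a time share larvae.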
